A study of Homo sapiens with 12 samples.

Results

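The loss of *RB1* in cycling breast cancer cells was read out by RNA sequencing of 6 libraries out of the 12 in the series: 3 replicates of ZR-75-1 cells carrying a non-targeting guide RNA (sgControl) and 3 replicates of *RB1*-knockout cells, all kept for 5 days in the drug vehicle DMSO. ZR-75-1 is an oestrogen receptor-positive human breast cancer cell line with luminal features. Both genotypes were isogenic clones grown out of bulk ZR-75-1 cells after CRISPR editing, with a guide against *RB1* in one case and the non-targeting guide in the other. The other 6 libraries came from the same genotypes treated with 500 nM abemaciclib, a CDK4/6 inhibitor, and served to estimate the spread in the statistical model. The number of clones behind each genotype was not given in the sources used here, so that effects of the lost gene and of growing out a clone cannot be told apart. The comparison covered every gene with enough reads, which left 16755 genes tested of 60612 in the count table. Genes of chromosome 13 that start distal to 33.8 Mb (GRCh38), a segment that holds *RB1* itself, were kept apart (203 tested genes, called distal 13q below), because their counts were lower as a block in the knockout.

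The retinoblastoma protein Rb binds E2F transcription factors at the promoters of genes needed for S phase and holds them in check. Cyclin D-CDK4/6 and cyclin E-CDK2 phosphorylate Rb and release E2F, and the related pocket proteins p107 (*RBL1*) and p130 (*RBL2*) act on overlapping promoters, p130 mainly through the DREAM complex that silences G2/M genes. In a proliferating culture most Rb is already phosphorylated. The question asked of these data is how the genotypes differed before any CDK4/6 inhibitor was added.

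Sequencing depth was 61669670 to 81636393 counts in the sgControl libraries and 39907318 to 51343077 in the knockout libraries, so the genotypes did not overlap in depth. Counts were scaled by median-of-ratios size factors, and all levels below are such normalised counts, given for replicates 1, 2 and 3 in that order. The knockout replicates lay close to each other, with a chi-square of 3.49 to 5.58 per gene between pairs, against 18.07 to 105.05 between sgControl pairs. sgControl replicate 1 stood apart by transcript length: relative to the sgControl mean, the median of its 2844 genes with the shortest exon length (75 to 3491 bases) was 0.15 on the log2 scale, against -0.04 and -0.11 in replicates 2 and 3, and over the 2842 genes with the longest (8354 to 122609 bases) it was -0.13 against 0.04 and 0.08. Calls followed length in the same sense, with 456 genes higher and 736 lower among the shortest and 790 higher and 490 lower among the longest. The part of this length difference in the calls was not tested. The luminal markers *FOXA1*, *GATA3*, *ESR1* and *KRT19* were expressed in both genotypes. Of 15 immune cell markers, 6 were at 0 in all 6 libraries (*MS4A1*, *CD79B*, *CD3D*, *CD3E*, *TYROBP* and *NKG7*), and the pan-leukocyte marker *PTPRC* had 0.0, 0.0 and 0.0 normalised counts in sgControl and 2.7, 0.0 and 2.3 in the knockout. Of 10 fibroblast markers, 4 were at 0 throughout (*COL1A2*, *PDGFRA*, *FAP* and *POSTN*). The summed level of the fibroblast list was 2122.4 to 2418.4 in sgControl and 1905.9 to 2072.4 in the knockout, nearly all of it *COL1A1* (2097.3, 2246.6 and 2391.9 against 1878.5, 2054.8 and 1887.1). The part of these markers in the results was not tested.

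*RB1* (chr13:48303744-48599436, plus strand, GRCh38 as for all positions here) had 4153.7, 4824.6 and 4751.8 normalised counts in sgControl and 39.6, 49.6 and 51.2 in the knockout, a log2 fold change of -6.60 ± 0.16 (SE, n = 3 per group) or a 97.0-fold lower level. All 3 knockout libraries matched their label. Across all tested genes, 6259 (37.4%) passed an adjusted *P* of 0.05 in the DESeq2 Wald test, 3214 higher and 3045 lower in the knockout. Outside distal 13q, 6109 of 16552 genes passed (36.9%), 3205 higher (19.4%) and 2904 lower (17.5%). Most of these changes were small: the median absolute log2 fold change of the genes called outside distal 13q was 0.39, with 751 genes at least 2-fold higher, 254 at least 2-fold lower, 243 at least 4-fold higher and 75 at least 4-fold lower. Most of the larger changes were increases. In bulk counts, more or fewer cells that express a gene and more or less RNA per cell cannot be told apart. Protein-coding genes were called in 42.5% of cases, long non-coding RNAs in 19.5% and pseudogenes in 11.2%. The labels name 3 biological replicates per condition but not what separated them, and adjusted *P* values measure only the spread between these libraries. Of the 139 genes picked for description that could be placed, 21 share exon bases with another gene on the same strand and 62 with a gene on the opposite strand, and counts of such pairs may be mixed.

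**Figure D1:**
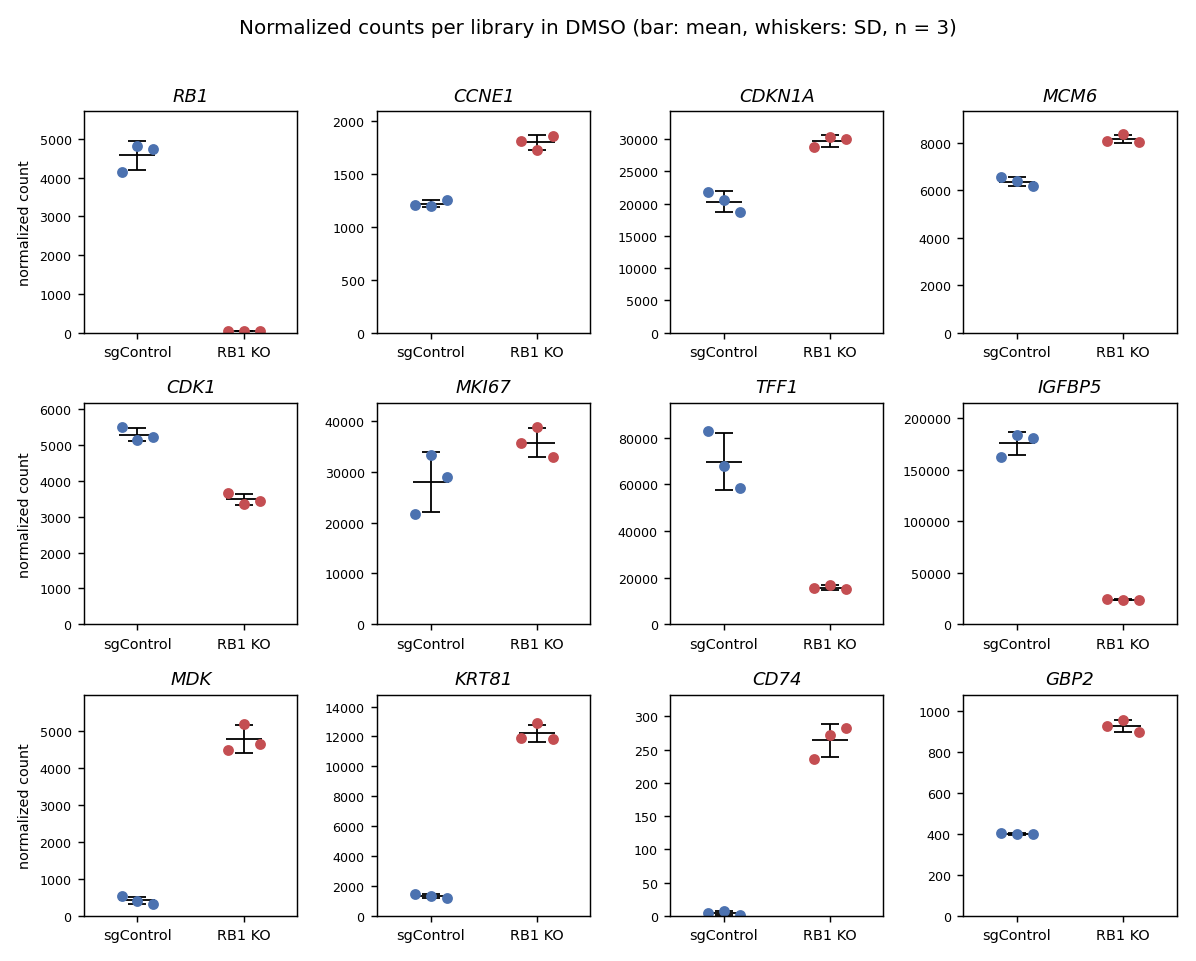
Normalised counts (vertical axis, starting at 0) of 12 genes in each DMSO library of sgControl (blue) and *RB1*-knockout (red) cells, with the mean as a bar and the SD as whiskers (n = 3). The genotypes do not overlap in 11 of the 12 panels, while the *MKI67* points of sgControl reach into the range of the knockout. These genes were picked with earlier results known, so the panels do not speak for genes at large.

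Among the genes of the Rb pathway itself, 10 of 40 tested were higher (25.0%, against 19.4% of all genes outside distal 13q), 10 lower (25.0%, against 17.5%) and 20 did not pass. The median log2 fold change was -0.01. The lower members include *RB1* itself and *TFDP1*, both in distal 13q. Leaving these out, 10 of 38 were higher and 8 lower. *RBL1* and *RBL2*, the pocket protein genes, gave log2 fold changes of -0.06 ± 0.11 (adjusted *P* = 0.747) and -0.11 ± 0.10 (adjusted *P* = 0.430), with overlapping groups. *E2F1*, the activator E2F most tied to S-phase entry, was at 8069.0, 7249.2 and 7394.4 in sgControl and 6813.3, 7400.6 and 7340.4 in the knockout (adjusted *P* = 0.300). *E2F2* and *E2F3*, the other activators, were higher in every knockout library: *E2F3* had 745.6, 811.7 and 798.2 counts against 971.4, 924.4 and 932.2, a log2 fold change of 0.26 ± 0.07 (adjusted *P* = 4.67e-04), and *E2F2* changed by 0.19 ± 0.06 (adjusted *P* = 0.00524, but 0.104 when libraries were scaled by total count). Of the dimer partners, *TFDP2* rose by 0.68 ± 0.11, whereas *TFDP1*, which lies in distal 13q, fell by 0.63. *KDM5A*, a histone demethylase gene named for its binding to Rb, gave 0.15 and did not pass (adjusted *P* = 0.176).

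Cyclin E genes, which drive CDK2, were higher. *CCNE1* (chr19:29811991-29824312) had 1209.2, 1199.5 and 1261.2 counts in sgControl and 1811.6, 1727.6 and 1864.4 in the knockout, a log2 fold change of 0.56 ± 0.07 (adjusted *P* = 7.80e-16). *CCNE2* changed by 0.30 ± 0.08 (adjusted *P* = 9.71e-04). On the CDK4/6 side, *CDK6* had the largest increase of the list, from 87.5, 126.0 and 110.2 to 282.8, 233.6 and 320.6 (1.37 ± 0.19, adjusted *P* = 2.35e-11), though at a low level, while *CCND1*, the cyclin D1 gene, was lower at 61816.2, 69888.7 and 68111.5 against 58099.7, 57595.9 and 58693.3 (-0.20 ± 0.05, adjusted *P* = 0.00127). *CDK4* did not pass.

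CDK inhibitor genes moved in both directions. *CDKN1A*, which encodes p21, was at 21753.2, 20601.0 and 18642.9 in sgControl and 28705.6, 30306.3 and 30082.2 in the knockout (0.55 ± 0.06, adjusted *P* = 2.44e-17), and *CDKN1C*, which encodes p57, was higher from a low level with 84.7, 65.2 and 73.7 against 142.1, 139.9 and 163.7 counts (1.00 ± 0.19, adjusted *P* = 1.77e-06). *CDKN2C*, the p18 gene, was lower at 3605.4, 3242.5 and 3209.6 against 2543.9, 2789.7 and 2643.1 (-0.33 ± 0.06, adjusted *P* = 2.39e-06). None of these 3 genes overlapped between genotypes. *CDKN2A*, the p16 gene often raised where Rb is lost, gave 0.18 ± 0.08 (adjusted *P* = 0.0658), and without sgControl replicate 1 it gave 0.26 with an adjusted *P* of 5.21e-04. *RBL2* also crossed the threshold without that library (-0.23, adjusted *P* = 0.0154). Of the DREAM and MuvB subunits that pair with p130, *LIN9* (-0.52 ± 0.08) and *LIN54* (-0.38 ± 0.10) were lower, and the genes of the MuvB partners B-MYB (*MYBL2*) and *FOXM1* did not pass.

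DNA replication genes are the textbook targets of E2F. Of 50 tested, 11 were higher (22.0%, near the 19.4% of all genes outside distal 13q) and 13 lower (26.0%, against 17.5%). The other 26 did not pass, and the median log2 fold change was -0.04. With the 6 DMSO libraries fitted alone, 10 were higher and 8 lower. Of the replicative helicase genes, *MCM2*, *MCM3*, *MCM4*, *MCM5* and *MCM6* were higher, by 0.20 to 0.36 on the log2 scale, but *MCM7* was lower (-0.14 ± 0.06, adjusted *P* = 0.0396, groups overlapping). *MCM6* (chr2:135839626-135876443, minus strand) had 6547.9, 6374.0 and 6161.6 counts in sgControl and 8051.1, 8355.8 and 8033.8 in the knockout (0.36 ± 0.05, adjusted *P* = 3.61e-13). *MCM2* had 16821.3, 17637.9 and 16278.7 against 20284.2, 21300.4 and 20205.6 (0.28 ± 0.05, adjusted *P* = 6.08e-08). Both helicase subunits separated the genotypes fully. *CDT1*, which loads the helicase, rose by 0.42 ± 0.10 (adjusted *P* = 1.70e-04), and *CHAF1B* (chromatin assembly), *POLE* (leading-strand polymerase) and *TIPIN* (fork protection) by 0.41, 0.34 and 0.32. On the lower side were *DBF4*, the activator of the CDC7 kinase, at 2573.9, 2358.5 and 2301.2 against 1696.8, 1694.5 and 1666.6 (-0.52 ± 0.07, adjusted *P* = 5.36e-12), *MCM8* (-0.42), the helicase cofactor *CDC45* (-0.38) and the clamp loader subunit *RFC4* (-0.35). *RFC3* (-1.09 ± 0.06) belongs to distal 13q. *PCNA*, the sliding clamp, and *CDC6*, a helicase loader, did not pass (log2 fold changes of -0.02 and -0.09).

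E2F sites were looked for in RefSeq promoters (GRCh38.p14), taken as the 250 bases before and 50 after the start of each gene, since the E2F proteins that Rb holds act at such sites. A promoter entry was found for 8253 of the 16755 tested genes. The motif was any of TTTCCCGC, TTTCGCGC, TTTGCCGC and TTTGGCGC on either strand, and for the shares each promoter was scored as with or without it. It was present in 3.31% of all 35116 promoters of the table, in 5.50% of tested genes, and in 17 of 35 DNA replication genes with an entry (48.6%). Outside distal 13q it was held by 4.76% of genes called higher, 4.74% of genes called lower and 5.83% of genes not called. Within the replication list outside distal 13q, 5 of 16 genes with the motif were higher, 1 was lower and 10 did not pass, against 3 higher, 7 lower and 8 not passing of 18 without it. The 3 promoters below belong to the replication genes with a match upstream of their start that changed most outside distal 13q; capitals mark the E2F matches, and each is written 5′ to 3′ on the strand of its gene. They cover chr16:88803714-88803788 (plus strand), chr2:135876482-135876635 (minus strand) and chr12:132687343-132687400 (minus strand).
*CDT1*: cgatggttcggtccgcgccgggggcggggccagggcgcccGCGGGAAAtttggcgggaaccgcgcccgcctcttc
*MCM6*: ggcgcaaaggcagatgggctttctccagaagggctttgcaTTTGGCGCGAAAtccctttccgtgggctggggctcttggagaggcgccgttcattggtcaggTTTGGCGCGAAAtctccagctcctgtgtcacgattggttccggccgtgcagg
*POLE*: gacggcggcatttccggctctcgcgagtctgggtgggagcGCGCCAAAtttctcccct
In the 250 bases before the start, the *MCM6* promoter holds the motif 4 times, as a pair of inverted, overlapping copies at each of the capital runs, whereas *CDT1* and *POLE* hold it once. A match in these letters is a description of the sequence and not of binding.

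Nucleotide supply genes, which feed replication with deoxynucleotides, were higher in 7 of 24 tested (29.2%, against 19.4%), lower in 12 (against 17.5% of all genes outside distal 13q) and neither in 5 (median log2 fold change -0.13). With the 6 DMSO libraries fitted alone, 4 were higher and 8 lower. *RRM2*, the cell cycle-regulated subunit of ribonucleotide reductase, had 11138.2, 10908.6 and 10823.9 counts in sgControl and 8377.6, 8191.6 and 8468.1 in the knockout (-0.39 ± 0.05, adjusted *P* = 6.75e-16), while *RRM1*, its constant partner, was slightly higher (0.14 ± 0.04, adjusted *P* = 0.00107). The groups of both genes were separate. *TYMS*, thymidylate synthase, changed by only -0.15 ± 0.05 (adjusted *P* = 0.00801) and did not pass when the 6 DMSO libraries were fitted alone (adjusted *P* = 0.0802) or without knockout replicate 3 (0.0637). *DUT* (dUTPase, -0.40), *DCK* (deoxycytidine kinase, -0.42) and *ADSL* (purine synthesis, -0.47) were also lower, the last with exon bases shared with another gene on its strand. The genes that rose included *SHMT1* (one-carbon supply, 0.32) and *CAD* (the first steps of pyrimidine synthesis, 0.30).

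G2/M and mitosis genes were mostly lower. Of 54 tested, 34 were lower (63.0%, against 17.5% of all genes outside distal 13q), 2 higher and 18 did not pass, and the median log2 fold change was -0.21, against -0.01 for all tested genes. Leaving out the 4 members in distal 13q, 30 of 50 were lower and the median was -0.20. *CDK1* (chr10:60778331-60794852), the mitotic kinase, had 5506.3, 5149.8 and 5234.9 counts in sgControl and 3664.2, 3352.7 and 3450.2 in the knockout (-0.60 ± 0.06, adjusted *P* = 1.08e-24). *NUF2*, a subunit of the NDC80 complex that ties kinetochores to microtubules, had 3569.1, 3210.8 and 3299.1 against 2216.0, 2090.0 and 1911.0 (-0.70 ± 0.08, adjusted *P* = 2.69e-17). *MAD2L1*, of the spindle checkpoint, had 5178.6, 4661.5 and 4668.6 against 3348.6, 3065.1 and 3138.7 (-0.60 ± 0.07, adjusted *P* = 5.54e-17). Every knockout library was below every sgControl library for these 3 genes. The cyclin genes *CCNA2* and *CCNB1*, whose products activate CDK1, changed by -0.39 and -0.20. *SPC25*, *NDC80* (further kinetochore subunits), *ECT2* (cytokinesis), *CKS1B* (a CDK subunit) and *TOP2A* (topoisomerase II) changed by -0.57, -0.51, -0.50, -0.46 and -0.42.

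The 2 members that rose were *CDC25B*, a phosphatase that activates CDK1 (0.26 ± 0.05, adjusted *P* = 1.81e-06), and *KIF20A*, a cytokinesis motor (0.17 ± 0.06, adjusted *P* = 0.00736). The number of higher members was 4 without sgControl replicate 1, and 1 without knockout replicate 1 or with total-count scaling. *PLK1*, a mitotic kinase, gave 0.11 (adjusted *P* = 0.162). *MKI67*, which encodes the proliferation marker Ki-67, spanned 21670.3, 33373.7 and 29061.8 in sgControl and 35681.5, 38708.3 and 32860.5 in the knockout, a log2 fold change of 0.35 ± 0.20 (adjusted *P* = 0.153). The lowest of these values was sgControl replicate 1, and the call turned with the setting: the adjusted *P* was 0.00655 without sgControl replicate 2, 0.0473 with the 6 DMSO libraries alone and 0.0104 with the replicate number as a block.

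The CHR element TTTGAA, the site through which DREAM and MuvB hold G2/M promoters, was searched on both strands of the same windows. It occurred in 28 of 37 G2/M genes with a promoter entry (75.7%), in 9.23% of tested genes and in 15.2% of all promoters. Genes called lower outside distal 13q carried it in 12.3% of cases, genes called higher in 7.48% and genes not called in 8.82%. This difference by direction was not seen among the called genes that changed at least 2-fold. Of those, 42 of 333 higher genes and 14 of 108 lower genes carried the element, which are similar shares. Within the G2/M list outside distal 13q it did not separate the genes by direction: 16 of 26 with the element were lower and none higher (median -0.20), and 5 of 8 without it were lower and 1 higher (median -0.18). The promoters shown are those of the members outside distal 13q with an upstream match that fell most, with the CHR in capitals, each on the strand of its gene: chr2:168890632-168890680 (minus), chr15:90994536-90994595 (minus) and chr1:154974611-154974680 (plus).
*SPC25*: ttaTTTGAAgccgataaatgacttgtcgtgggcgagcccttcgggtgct
*PRC1*: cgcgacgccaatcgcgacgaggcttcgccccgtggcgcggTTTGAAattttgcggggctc
*CKS1B*: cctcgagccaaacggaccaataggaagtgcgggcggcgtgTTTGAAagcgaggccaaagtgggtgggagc
In *PRC1*, a spindle midzone gene that changed by -0.56 ± 0.20, the first base of the element lies at position -20 from the start, in *CKS1B* at -30, and in *SPC25* at -247, near the far end of the window.

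In the list of homologous recombination and Fanconi genes, which repair broken and crosslinked DNA, 8 of 29 were lower (27.6%), 2 higher (6.90%) and 19 neither. Over all genes outside distal 13q, 17.5% were lower and 19.4% higher. The list median was -0.14. *BLM*, a helicase that resolves recombination intermediates, had 1144.1, 1199.5 and 1140.2 counts in sgControl and 855.3, 829.6 and 829.9 in the knockout (-0.47 ± 0.07, adjusted *P* = 8.76e-10). *RAD51AP1*, which acts in strand exchange, changed by -0.47, and *FANCD2* by -0.42. *RAD51D*, of the same repair pathway, and *FANCA*, of the Fanconi core complex, were higher by 0.30 and 0.29.

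**Figure D2:**
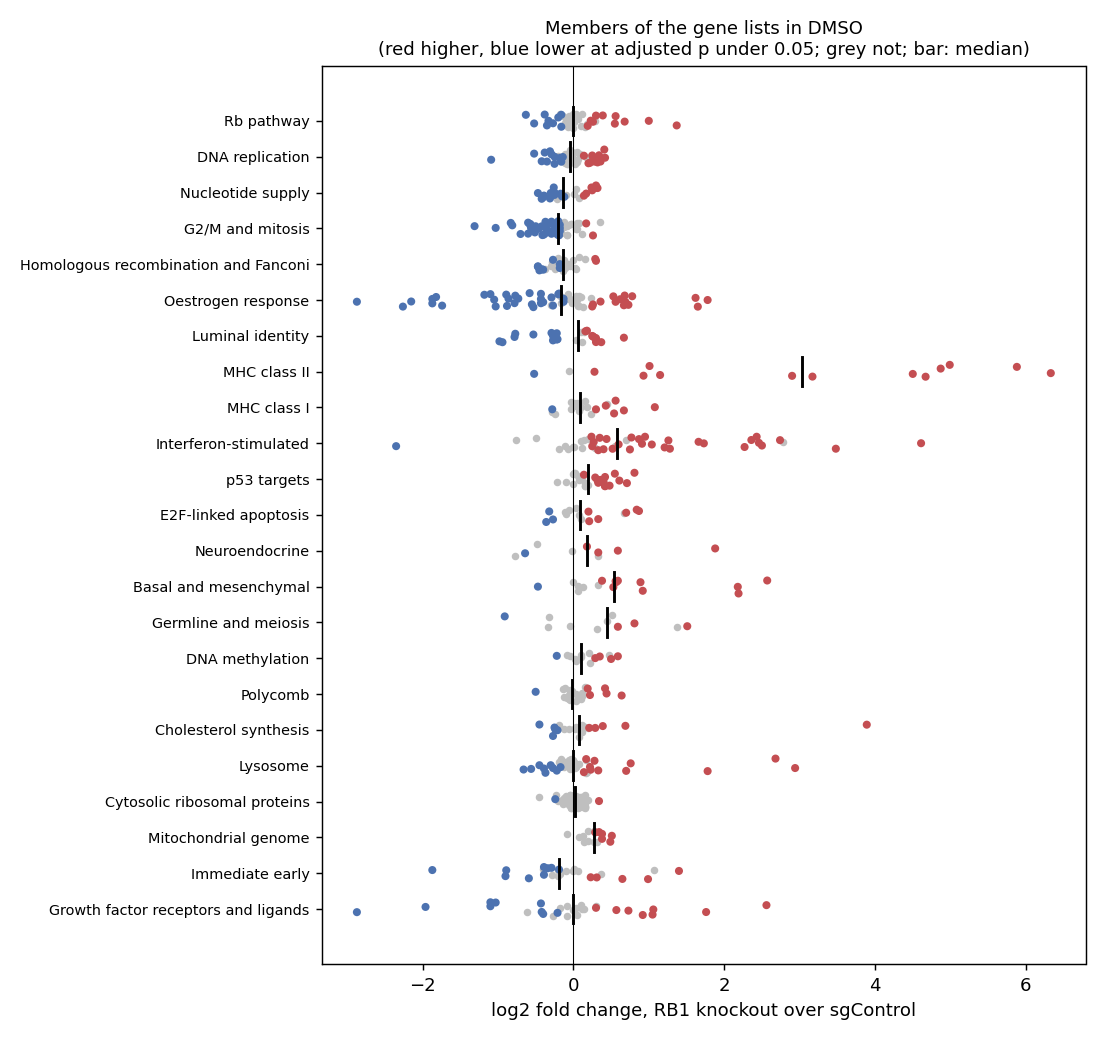
Log2 fold change (horizontal axis, *RB1* knockout over sgControl in DMSO) of each tested member of 23 gene lists, with genes called higher in red, called lower in blue, not called in grey and the list median as a bar; *RB1* is left out, and fitted values of genes near 0 in one group depend on the model. The MHC class II and interferon-stimulated members lie mostly to the right of 0, with medians of 3.04 and 0.58, and the G2/M members to the left, with a median of -0.21.

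Targets of p53 moved in 1 direction. Of 31 tested, 15 were higher (48.4%, against 19.4% of all genes outside distal 13q), none lower and 16 did not pass (median 0.20). *CDKN1A* has been given above. *GDF15*, a secreted stress cytokine, had 3853.9, 2972.0 and 2958.9 counts in sgControl and 5892.5, 5881.2 and 5429.4 in the knockout (0.81 ± 0.11, adjusted *P* = 1.74e-12), and *BBC3*, which encodes the pro-apoptotic protein PUMA, had 582.7, 489.2 and 505.2 against 793.8, 797.7 and 810.5 (0.61 ± 0.09, adjusted *P* = 3.19e-10). *TNFRSF10C*, a decoy receptor for TRAIL, rose by 0.71 and *BTG2*, an antiproliferative factor, by 0.48. *MDM2*, the negative regulator of p53, gave 0.16 and did not pass (adjusted *P* = 0.0894).

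In the list of apoptosis genes linked to E2F, 6 of 16 were higher (37.5%, against 19.4% of all genes outside distal 13q). Another 3 were lower (18.8%, against 17.5%) and 7 did not pass. *TP73*, a p53 relative that E2F1 is known to induce, had 976.5, 1128.1 and 1052.7 counts against 1838.9, 1873.0 and 1956.4 (0.84 ± 0.08, adjusted *P* = 1.18e-25). The BH3-only genes *BMF* (0.87 ± 0.13) and *BIK* (0.70 ± 0.19) were also higher, and the groups of *TP73* and *BMF* were separate. The lower members included the survivin gene *BIRC5* (-0.36) and the anti-apoptotic gene *BCL2* (-0.27).

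MHC class II molecules present peptides to CD4+ T cells. *CIITA* is the master coactivator of the family, RFX and NF-Y proteins bind its promoters, and CD74 is the invariant chain that guides the molecules through the cell. Of 14 tested members, 12 were higher (85.7%, against 19.4% of all genes outside distal 13q), 1 lower and 1 did not pass. Of those higher, 5 had no more than 3 counts in any sgControl library in DMSO. They could pass the count filter only through other libraries. Their direction was thus nearly fixed by being tested, and the count of higher members is a description only. *CIITA* itself was low, at 27.0, 21.2 and 13.2 in sgControl and 46.5, 39.7 and 46.6 in the knockout (1.15 ± 0.30, adjusted *P* = 5.76e-04). *CD74* (chr5:150401637-150412969, minus strand) had 4.7, 7.9 and 1.9 counts against 236.4, 272.1 and 283.1 (5.88 ± 0.38, adjusted *P* = 4.57e-53), and *HLA-DRA*, the DR alpha chain, had 3.7, 7.1 and 0.6 against 113.4, 78.2 and 75.0 (4.67 ± 0.45, adjusted *P* = 1.01e-23). These genes went from close to the counting floor to a moderate level in each knockout library.

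The list median was 3.04 (2.59 without sgControl replicate 3 and 3.95 without sgControl replicate 1), and 1.52 when the 5 members with no more than 3 counts in any control library (*HLA-DRB5*, *HLA-DPA1*, *HLA-DPB1*, *HLA-DQA1* and *HLA-DMB*) were placed at the bound that floor allows. *HLA-DPA1*, the DP alpha chain, was at 0, 0 and 0.6 in sgControl and 16.4, 26.4 and 26.1 in the knockout. *HLA-DQB1*, the DQ beta chain, was already expressed, at 391.9, 326.1 and 289.1, and had 661.2, 709.5 and 638.9 in the knockout (1.01 ± 0.10). The DR, DP and DQ genes are near-identical copies of each other in places, so that reads may have been shared between them and single-gene values are uncertain. *RFX5*, a subunit of the RFX factor, rose from 5170.2, 5178.0 and 5507.7 to 6425.3, 6536.8 and 6362.7 (0.28 ± 0.04), *RFXANK* did not pass, and the lower member was *RFXAP*, the remaining RFX subunit, which lies in distal 13q (-0.52 ± 0.21, adjusted *P* = 0.0357). This call was lost whichever of the 6 libraries was left out, with the replicate number as a block and without independent filtering. Of 15 immune cell markers 5 were tested and 2 called, the myeloid genes *CSF1R* (3.7, 0.0 and 0.0 against 13.7, 2.2 and 4.5) and *ITGAM* (23.3, 24.7 and 22.0 against 80.6, 40.8 and 44.3); the summed level of the list was 60.8 to 98.7 in sgControl and 85.3 to 127.1 in the knockout, with 6 defining markers at 0 throughout, as given above. Neither was called without knockout replicate 1, and *ITGAM* alone was without sgControl replicate 2 or 3 or knockout replicate 3.

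The Y box CTGATTGG, where NF-Y binds in MHC promoters, was found on either strand in 4 of 9 MHC class II genes with a promoter entry (44.4%), in 6.09% of tested genes and in 3.97% of all promoters. It was also in 4 of 11 MHC class I genes (36.4%), none of them called, and in 6 of 14 cholesterol synthesis genes (42.9%). Outside distal 13q, the 4 class II genes with it and the 4 without it were all higher, with medians of 1.95 and 4.74. The 3 shown hold it upstream of the start in MHC class II genes that rose; capitals mark the Y box, all lie on the minus strand of chromosome 6, and they cover chr6:32530333-32530420, chr6:32589850-32589937 and chr6:32666701-32666788.
*HLA-DRB5*: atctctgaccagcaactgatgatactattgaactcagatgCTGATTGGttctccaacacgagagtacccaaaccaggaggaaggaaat
*HLA-DRB1*: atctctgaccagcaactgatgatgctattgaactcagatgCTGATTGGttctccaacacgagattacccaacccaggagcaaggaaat
*HLA-DQB1*: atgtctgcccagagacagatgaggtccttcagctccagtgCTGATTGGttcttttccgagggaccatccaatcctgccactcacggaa
The *HLA-DRB5* and *HLA-DRB1* stretches are nearly the same letters, which shows how alike these loci are. *HLA-DRB1*, a DR beta chain, had 24.2, 9.7 and 13.2 counts in sgControl and 106.6, 144.3 and 93.2 in the knockout, and *HLA-DRB5*, a second DR beta chain, had 0.9, 2.6 and 1.3 against 36.9, 47.4 and 53.4.

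MHC class I molecules present peptides to CD8+ T cells. Of 22 tested genes of this pathway, 6 were higher (27.3%, against 19.4% of all genes outside distal 13q), 1 lower and 15 did not pass (median 0.09). The number of higher genes was 12 without sgControl replicate 1, the library that stood apart by transcript length, and that of lower genes 2 without sgControl replicate 2 or knockout replicate 2. The heavy chain genes *HLA-B* and *HLA-C* and the light chain gene *B2M* did not pass, with log2 fold changes of 0.15, 0.05 and 0.01. The genes that rose had different roles. *PSMB8*, an immunoproteasome subunit, had 409.6, 320.8 and 314.3 counts against 699.5, 723.9 and 770.8 (1.08 ± 0.10, adjusted *P* = 7.17e-24), *NLRC5*, the class I transactivator, rose by 0.67 ± 0.16, *TAPBPL*, a peptide editor, by 0.56, *PSMB9*, a further immunoproteasome subunit, by 0.54, *ERAP1*, a peptide-trimming protease, by 0.43 and *HLA-E*, a heavy chain gene, by 0.30. The lower member was *PDIA3*, of the peptide-loading complex (-0.28 ± 0.08, adjusted *P* = 0.00154).

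Interferon-stimulated genes were higher in 28 of 44 tested (63.6%, against 19.4% of all genes outside distal 13q). They were lower in 1 and neither in 15, with a median of 0.58. Of those higher, *SAMD9L* and *GBP1* had no more than 3 counts in any sgControl library in DMSO, so being tested nearly fixed their direction. The lower member was *EPSTI1*, which lies in distal 13q (-2.35), and 2 were lower without sgControl replicate 3 or knockout replicate 2. *IFI35*, an interferon-induced leucine zipper gene, had 91.2, 54.6 and 73.1 counts in sgControl and 224.1, 228.1 and 236.5 in the knockout (1.66 ± 0.17, adjusted *P* = 2.38e-21). *GBP2* (chr1:89106132-89150456), an interferon-induced GTPase, had 406.8, 397.5 and 398.8 against 927.7, 954.1 and 899.2 (1.21 ± 0.08, adjusted *P* = 1.14e-47). *ISG15*, a ubiquitin-like modifier, had 69.8, 62.6 and 51.7 against 154.4, 159.8 and 121.6 (1.26 ± 0.18). All 3 separated the genotypes. The antiviral genes *OAS1* (1.73), *DDX60* (0.95) and *HERC6* (0.91) were higher as well. *BST2* (0.11), *USP18* (0.01) and *IFI6* (-0.11), which are also induced by interferon, did not pass.

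**Figure D3:**
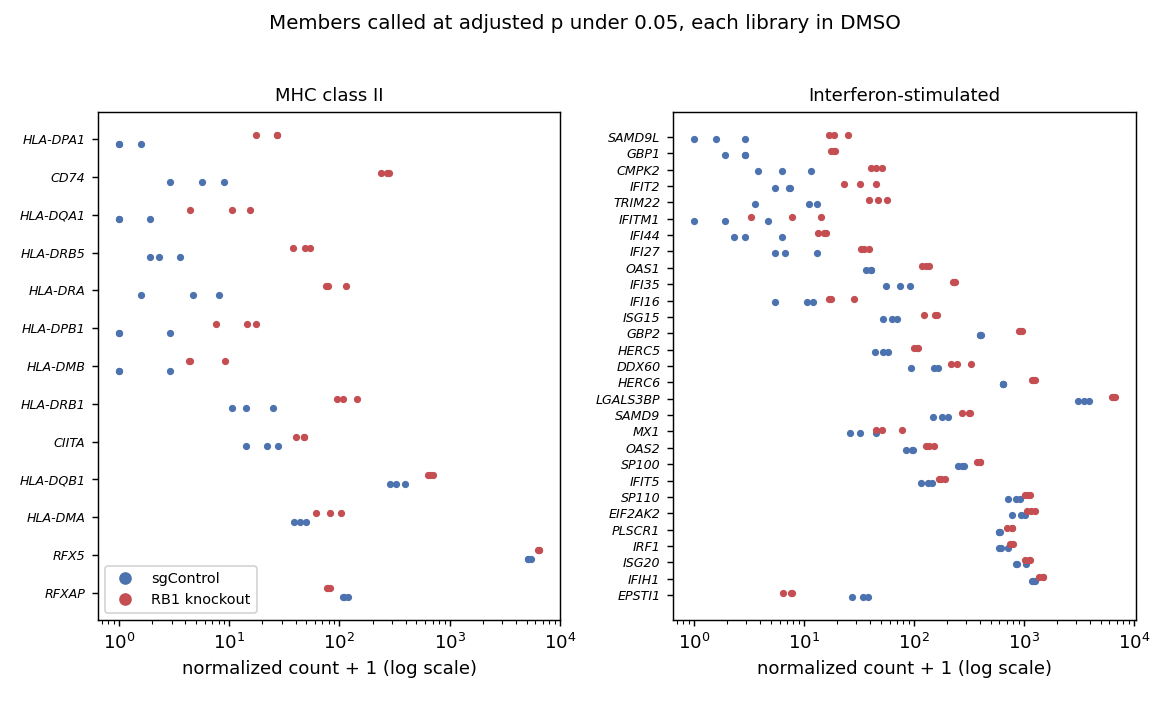
Normalised count plus 1 (log axis) in each DMSO library for the called members of the MHC class II list (left, 13 genes) and the interferon-stimulated list (right, 29 genes), in sgControl (blue) and *RB1* knockout (red). All but *RFXAP* on the left and *EPSTI1* on the right are higher in the knockout, and many of the sgControl points sit at 10 or fewer counts.

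Oestrogen response genes were tested because ZR-75-1 grows on oestrogen and *RB1* status is of interest in hormone receptor-positive disease. Of 61 tested, 30 were lower (49.2%, against 17.5% of all genes outside distal 13q) and 14 higher (23.0%, near the 19.4% of those genes). The other 17 did not pass (median -0.17). *IGFBP5* (chr2:216672105-216695549, minus strand), a secreted IGF-binding protein and one of the most abundant transcripts of the sgControl cells, had 162562.4, 183967.2 and 180534.1 counts in sgControl and 24388.3, 24022.9 and 23725.2 in the knockout (-2.87 ± 0.08, adjusted *P* = 9.54e-292). *TFF1* (chr21:42362282-42366535, minus strand), a trefoil peptide and classical oestrogen receptor target, had 82895.4, 67929.4 and 58531.1 against 15394.5, 16945.2 and 14938.8 (-2.15 ± 0.11, adjusted *P* = 2.71e-88). *PDZK1*, a scaffold protein, had 1030.5, 1241.0 and 1249.8 against 256.8, 252.3 and 228.5 (-2.26 ± 0.10, adjusted *P* = 5.99e-116). Every knockout value of these 3 genes lay far below every sgControl value. All 3 were also among the largest decreases, which were picked by a rule that required separate groups.

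*EGR3* and *TFF3*, each oestrogen-induced, changed by -1.87, the clock repressor *BHLHE40* by -1.82 and the protease inhibitor *SERPINA1* by -1.74. *PGR*, the progesterone receptor gene, had 4057.8, 5700.7 and 5561.9 counts against 2923.7, 2881.1 and 2661.3 (-0.86 ± 0.10, adjusted *P* = 7.95e-15). *GREB1*, an oestrogen receptor cofactor, was at 8424.6, 12337.3 and 13353.8 against 11185.2, 10859.0 and 10634.8 (adjusted *P* = 0.775). The higher members included *CTSD*, the lysosomal protease cathepsin D, with 31900.0, 24643.0 and 20484.3 against 83158.9, 96778.0 and 85242.3 (1.78 ± 0.13), the sodium channel subunit *SCNN1A* (1.65), the trafficking GTPase *RAB31* (1.62), the amino acid transporter *SLC7A5* (0.68) and the carbonic anhydrase *CA12* (0.56). Members of the list thus changed strongly in both directions. The full palindromic oestrogen response element, searched on both strands, was in 20 of all promoters of the table (0.0570%), in 2 tested genes and in none of 30 list members with an entry.

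Luminal identity genes changed in both directions, with 11 of 24 lower (45.8%, against 17.5% of all genes outside distal 13q), 9 higher (37.5%, against 19.4%) and 4 not passing. The number of higher genes was 4, 5 and 5 without knockout replicate 1, 2 and 3, and 6 with the 6 DMSO libraries alone. *ESR1*, the oestrogen receptor gene, had 9834.0, 12615.0 and 13711.0 counts in sgControl and 8783.4, 8127.7 and 8165.7 in the knockout (-0.53 ± 0.10, adjusted *P* = 9.57e-07). sgControl replicate 1 was the lowest control and still above every knockout library. *TFAP2C*, a luminal transcription factor, changed by -0.94, *PRLR*, the prolactin receptor gene, by -0.78, *XBP1* by -0.77 and the pioneer factor *FOXA1* by -0.22. Higher were the epithelial factor *ELF3* (0.67), *TFAP2A* (0.37) and *GATA3* (0.16). The keratin genes *KRT8* (0.25, adjusted *P* = 0.0488) and *KRT18* (0.26, adjusted *P* = 0.0403) passed with overlapping groups, and *KRT19* did not.

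Outside distal 13q, the largest increases were in genes that were nearly silent in sgControl. *SCIMP*, an adaptor of MHC class II signalling in immune cells, was at 0.0, 0.9 and 0.6 in sgControl and 601.1, 550.9 and 579.8 in the knockout. That is at least 236.4-fold higher against a floor of 3 counts per library. *SCIMP* could pass the count filters only through other libraries, so its direction was nearly fixed by being tested. *SLC6A17*, a vesicular amino acid transporter of neurons, had 14.0, 28.2 and 17.0 against 411.2, 490.3 and 426.3 (4.50 ± 0.21), and the membrane protein gene *TMEM179* and the long non-coding RNA *LINC00052* changed by 4.43 and 4.11. *TEAD2* (chr19:49340595-49362457, minus strand), a DNA-binding partner of YAP and TAZ, had 44.7, 44.9 and 35.9 against 550.6, 609.3 and 600.2 (3.83 ± 0.15). *APOL6*, an interferon-inducible apolipoprotein L, had 39.1, 29.1 and 32.8 against 430.4, 430.8 and 402.4 (3.65 ± 0.16). All 3 knockout libraries were above every sgControl library in each of these genes, which the rule that picked them required. *IGF2BP1*, an RNA-binding protein of fetal tissues (3.26), and the glutamate receptor gene *GRIA2* (3.18) followed. The gene AC044784.1, which could not be placed by its name, changed by 3.41.

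Among genes with a substantial level in both genotypes, *MDK* (chr11:46380756-46383837), which encodes the growth factor midkine, had 532.5, 392.2 and 330.1 counts in sgControl and 4471.6, 5187.1 and 4638.2 in the knockout (3.52 ± 0.12, adjusted *P* = 3.01e-177). *KRT81* (chr12:52285913-52291534, minus strand), a hair keratin, had 1446.6, 1361.7 and 1189.4 against 11892.9, 12871.9 and 11838.7 (3.20 ± 0.08), with its close paralogue *KRT86* higher by 1.52, so that reads may be shared between them. *SSTR2*, the somatostatin receptor gene, had one of the largest decreases: 402.1, 438.9 and 379.9 in sgControl against 38.3, 26.4 and 26.1 (-3.77 ± 0.18, adjusted *P* = 9.67e-90). *ETNK2*, an ethanolamine kinase, had 24278.7, 21371.3 and 19481.4 against 3227.0, 3492.6 and 3309.2 (-2.70 ± 0.08), and *MGP*, a matrix protein that limits calcification, had 25173.3, 21589.9 and 17711.2 against 4045.4, 4285.9 and 4397.2 (-2.34 ± 0.10). Neither gene overlapped between genotypes, which the rule that picked them required. The ion channel gene *ASIC2* (-2.98), the nuclear factor *AFF3* (-2.50), the kinesin *KIF12* (-2.47), the prostaglandin-degrading enzyme *HPGD* (-2.35) and the thyroid hormone-binding protein *CRYM* (-2.07) completed the decreases described. *ZNF160*, a zinc-finger gene singled out after its values were seen, went from 83.8, 106.6 and 125.4 counts to 0.0, 1.1 and 0.0. That is at least 29.2-fold lower against a floor of 3 counts per library. With no more than 3 counts in any knockout library, its direction was nearly fixed by being tested.

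Some of the changed genes were neighbours. On chromosome 1, in the epidermal differentiation region (152908546 to 153361023), *IVL*, which encodes involucrin, went from 0.9, 0.9 and 1.3 counts to 155.7, 146.5 and 101.2, *SPRR1A*, a cornified envelope protein, from 5.6, 2.6 and 2.5 to 73.8, 90.3 and 93.2, and *SPRR3* and the calprotectin subunit *S100A9* were higher by 3.54 and 4.25. On chromosome 11 the secretoglobins *SCGB2A1* (-1.25), *SCGB1D2* (-1.81) and *SCGB2A2*, the mammaglobin gene, fell together, the last from 14072.4, 10264.4 and 8688.4 to 2847.2, 2995.7 and 2830.6 (-1.93 ± 0.14). *IFITM10* (1.74) and the synaptotagmin gene *SYT8* (2.76) flank *CTSD* on chromosome 11 and were also higher, as were, on chromosome 17, the lymphocyte receptor gene *CD7*, the gene of its ligand *SECTM1* and *TEX19* (2.69, 1.92 and 1.82). In the protocadherin beta cluster of chromosome 5, *PCDHB5*, *PCDHB7* and *PCDHB8*, which encode cell adhesion proteins, rose by 1.80, 1.51 and 1.16, and the pseudogene *PCDHB17P* went from 0 in every sgControl library to 56.0, 30.8 and 36.4, at least 16.8-fold higher against a floor of 3 counts per library. The protocadherin genes are near-identical in parts and their single values are uncertain.

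Of the basal and mesenchymal genes, which luminal cells keep low, 10 of 16 tested members were higher (62.5%), 1 lower and 5 neither (median 0.54). Over all genes outside distal 13q, 19.4% were higher. *KRT17*, a basal keratin, was low, with 28.9, 22.0 and 29.6 against 105.2, 141.0 and 119.4 (2.18 ± 0.25), and *EGFR*, *OXTR* (the oxytocin receptor gene) and *CDH3* (P-cadherin) rose by 0.92, 0.89 and 0.59. The lower member was *FN1*, fibronectin (-0.47). Of the fibroblast markers *LUM* was higher (3.7, 3.5 and 2.5 against 12.3, 8.8 and 11.4) and *COL1A1* lower (-0.21, adjusted *P* of 0.0518 with the 6 DMSO libraries alone and of 0.0544 to 0.0562 without sgControl replicate 3 or knockout replicate 1 or 3). The *LUM* call was lost with the 6 DMSO libraries alone and without sgControl replicate 3.

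A neuroendocrine programme is known from *RB1*-deficient tumours. Of 24 neuroendocrine genes, 9 were tested, 4 of them higher (44.4%) and 1 lower (11.1%). *SYT1*, a synaptic vesicle gene, and the neural factor *SOX2* rose by 0.59 and 0.33, and *SYP*, the synaptophysin gene, fell by 0.64. Of 35 germline genes, 11 were tested, 3 higher (27.3%) and 1 lower (9.09%). *MAGEA3*, a cancer-testis antigen, had 2888.6, 2723.4 and 2767.4 counts against 7921.3, 8237.9 and 7768.9 (1.51 ± 0.04, adjusted *P* = 6.49e-248), while its near-identical copy *MAGEA6* gave -0.04, and how reads were divided between the copies is uncertain. *PRAME*, a further cancer-testis antigen, rose by 0.59. Of 15 DNA methylation genes 4 were higher (26.7%) and 1 lower (6.67%, none without sgControl replicate 3 or knockout replicate 2), with the 5-methylcytosine oxidases *TET3* at 0.59 and *TET2* at 0.50, the latter lost without knockout replicate 1 (adjusted *P* = 0.0504) and with total-count scaling (0.137). Of 26 Polycomb genes 5 were higher (19.2%) and 1 lower (3.85%; 2 genes without sgControl replicate 1 or 3). Over all genes outside distal 13q the shares were 19.4% and 17.5%, so that the share of higher Polycomb genes was that of all genes. *JARID2*, a PRC2 cofactor, had 899.2, 1148.4 and 1162.9 against 1690.0, 1685.7 and 1650.6 (0.64 ± 0.09), and *BMI1*, a PRC1 subunit, 6449.3, 6320.3 and 6806.0 against 4725.7, 4446.7 and 4680.2 (-0.50 ± 0.06).

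Growth factor receptors and ligands split, with 8 of 29 higher (27.6%), 9 lower (31.0%) and 12 neither. Over all genes outside distal 13q the shares were 19.4% and 17.5%. *MET*, the hepatocyte growth factor receptor gene, had 63.3, 69.6 and 81.9 counts against 233.6, 256.7 and 244.4 (1.76 ± 0.15, adjusted *P* = 2.02e-30). *FGF2* went from 5.6, 5.3 and 11.3 to 30.1, 52.9 and 53.4, and the insulin receptor gene *INSR* and the ERBB ligand gene *NRG1* were higher by 1.05 and 1.06. *GFRA1* and *RET*, which encode a co-receptor and its kinase for GDNF ligands and are oestrogen-responsive, were both lower by the same amount (-1.10), *GFRA1* from 3316.8, 3587.2 and 3674.5 to 1627.2, 1647.1 and 1647.2. *IGFBP4* fell by 1.03 on the log2 scale. Immediate early genes also split, with 5 of 25 higher and 9 lower. The number of higher genes was 3 without sgControl replicate 2 or knockout replicate 2, and that of lower genes 5 without sgControl replicate 2 and 4 without sgControl replicate 3 or knockout replicate 3. The AP-1 subunits *FOSL2* (1599.3, 1961.0 and 1978.1 against 4805.0, 5043.9 and 4739.3, 1.40 ± 0.08) and *FOSL1* (0.99) were higher, and *EGR1* (-0.90) and *FOS* (-0.89) lower, the last with overlapping groups.

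Of 42 lysosome genes tested, 12 were higher (28.6%, against 19.4% of all genes outside distal 13q) and 9 lower (21.4%, against 17.5%). *GPNMB*, a lysosomal glycoprotein, had 156.4, 114.6 and 141.7 counts in sgControl and 1084.8, 1042.3 and 1039.0 in the knockout (2.94 ± 0.09, adjusted *P* = 2.33e-232), and the cathepsin genes *CTSH* and *CTSZ* rose by 0.76 and 0.70, while *NPC2*, a cholesterol carrier, fell by 0.66. Cholesterol synthesis genes were balanced, with 5 of 25 higher and 5 lower, among them the reductase *TM7SF2* (0.69) and the sterol carrier *STARD4* (-0.45). Of 78 cytosolic ribosomal protein genes, 1 was higher (*RPL29*, 0.34) and 1 lower (*RPL22*, -0.24), and both lost the call without some single libraries: *RPL29* without sgControl replicate 2 or 3 or knockout replicate 2 (adjusted *P* = 0.0624, 0.0842 and 0.0850), *RPL22* without knockout replicate 1 or 2 (0.0538 and 0.0515). Leaving out sgControl replicate 1 gave 54 higher ribosomal protein genes and leaving out sgControl replicate 3 gave 9 lower ones, so the list's counts rested on single sgControl libraries. Of 15 genes of the mitochondrial genome 6 were higher and none lower (median 0.28, but 0.43 without sgControl replicate 1 and 0.09 without sgControl replicate 3), for example *MT-ND4L*, a complex I subunit, with 28898.7, 36170.3 and 27585.2 against 42886.9, 47375.9 and 41774.2. The summed mitochondrial level overlapped between genotypes (1451602.5 to 2304818.5 in sgControl and 2067822.5 to 2336042.0 in the knockout), and *MT-CYB* and *MT-ND4* lost their calls without sgControl replicate 3 (adjusted *P* = 0.0962 and 0.103) or knockout replicate 2 (0.0930 and 0.0937), with 2 genes of this list higher in either case.

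In distal 13q, 150 of 203 tested genes were called (73.9%), 141 lower (69.5%) and 9 higher (4.43%). The boundary was drawn with these values known, so the counts describe the segment and test nothing. Among the 143 genes other than *RB1* with a mean of at least 100 normalised counts, the median log2 fold change was -0.69, or 0.618 of the sgControl level, with the middle 50% between -0.87 and -0.52 and a range of -1.48 to 0.46. Of these, 125 were lower, 3 higher and 15 not called. The shift was alike in each knockout library (medians of -0.69, -0.71 and -0.67 over 144 genes including *RB1*), and the sgControl libraries were at -0.06, 0.01 and 0.05. The same 144 genes had a median of -0.50 in the abemaciclib libraries, with 105 below 0.

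The level changed between neighbouring genes. *STARD13*, the last measured gene before the boundary, had 747.5, 825.0 and 924.1 counts in sgControl and 762.3, 778.9 and 729.8 in the knockout (-0.14, adjusted *P* = 0.260). *RFC3*, a clamp loader subunit and the first gene beyond it (start at 33818069), had 2668.9, 2697.0 and 2720.2 against 1263.8, 1232.9 and 1292.5 (-1.09 ± 0.06, adjusted *P* = 6.39e-65). The *RFC3* values in the knockout were thus near 0.469 of sgControl with almost no spread, and *NBEA* (membrane trafficking), *ALG5* (protein glycosylation), *EXOSC8* (the RNA exosome) and *UFM1* (a ubiquitin-like modifier) further along were at -1.06, -0.78, -0.99 and -1.19, while *SPART*, the spartin gene, was higher (0.32). The 47 genes proximal to the boundary had a median of -0.03. One of them, *FRY*, a microtubule-linked scaffold gene singled out after its values were seen, was lower at 162.9, 223.9 and 190.2 against 118.9, 101.4 and 96.6 (-0.87 ± 0.19).

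Genes beside *RB1* showed the same level shift. *MED4*, a Mediator subunit, had 2479.0, 2165.5 and 2400.8 counts against 1134.0, 1155.8 and 1185.7 (-1.02), and *ITM2B*, a membrane protein, 7741.3, 6946.9 and 6582.4 against 4064.5, 3667.8 and 3958.4 (-0.86). On the other side *CDADC1* and *CAB39L* were both at -0.82, and *FNDC3A* at -0.43 with overlapping groups (adjusted *P* = 0.0940 without sgControl replicate 3 and 0.0921 without knockout replicate 2). Against these, the fold change of *RB1* itself was far larger. Among called genes with separate groups and a mean of at least 100 counts, the strongest decreases other than *RB1* were *SLITRK6*, a neuronal membrane protein gene, at 623.7, 744.8 and 744.0 against 263.7, 255.6 and 238.7 (-1.48), *MCF2L* (-1.38), *TGDS* (-1.36) and *MZT1*, a gamma-tubulin ring component, at 2550.7, 2378.8 and 2397.0 against 1041.1, 917.8 and 994.7 (-1.31). Over all called genes of the segment, 4 were at least 4-fold lower, *RB1* and *EPSTI1* (-2.35) among them. At a mean of at least 100 counts, the increases called were *LMO7*, a junction protein gene, at 2249.0, 2662.6 and 2713.9 against 3747.5, 3307.5 and 3319.5 (0.44), *SPART* and *FAM124A* (0.46), and the last 2 lost the call without knockout replicate 1 (adjusted *P* = 0.0547 and 0.109), *FAM124A* also without sgControl replicate 1 (0.0681). Of all 9 genes called higher in the segment, 6 rose at least 2-fold and 3 at least 4-fold. Fewer gene copies and less RNA per copy cannot be told apart in these counts.

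**Figure D4:**
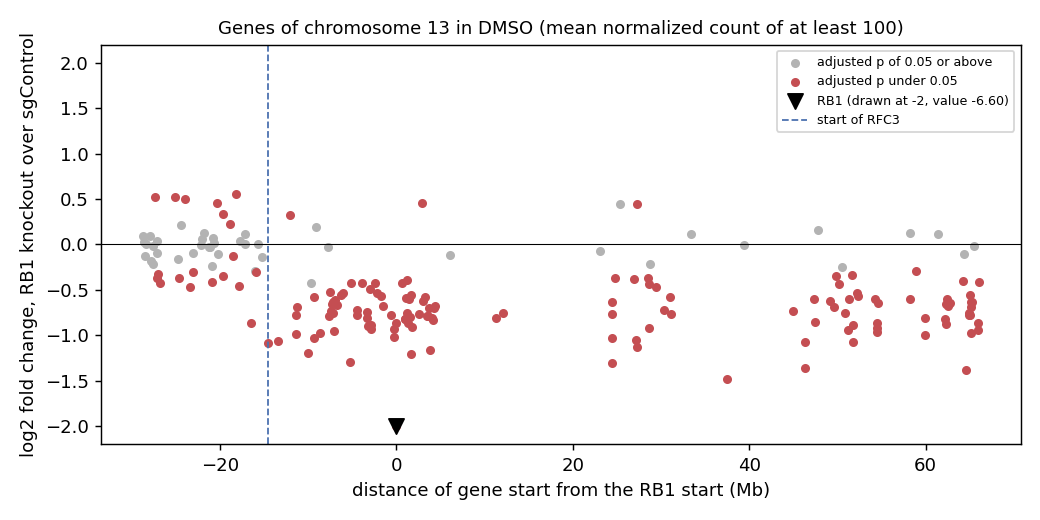
Log2 fold change (vertical axis, *RB1* knockout over sgControl in DMSO) of chromosome 13 genes with a mean normalised count of at least 100, against the distance of the gene start from that of *RB1* (Mb); genes called at an adjusted *P* under 0.05 are red, the dashed line is the start of *RFC3*, and *RB1* (-6.60) is drawn at -2. Genes left of the line scatter around 0, and most genes to the right lie near the segment's median of -0.70.

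The medians of the other nuclear chromosomes lay between -0.07 and 0.06, and that of the mitochondrial genome was 0.28 (16 genes). Among windows of 10 Mb with at least 20 such genes outside chromosome 13, the medians furthest from 0 were -0.26 on chromosome 5 from 60 to 70 Mb (33 genes) and -0.24 on chromosome 3 from 110 to 120 Mb (21 genes).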

How the data were processed

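RNA was extracted from 3 replicates of each genotype and treatment, and libraries were made with a directional kit per the labels, whereas the study's general methods name a 3′ kit for its RNA sequencing. Per the labels, the authors used STAR 2.7.5b and featureCounts 2.0.1 on hg38, and they deposited raw counts per gene; the strand and multimapping settings are not given in the sources used here. Of 60656 rows, 44 name no gene (0% of counts) and were left out. The annotation was matched to GENCODE release 44 for positions (by symbol or older symbol; 1920 tested genes had none), and the counts carry identifiers of release 35.

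All 12 libraries were fitted in DESeq2 1.42.0 (R 4.3.3) with 1 term per group, median-of-ratios size factors and no replicate term; the 2 DMSO groups were compared by a two-sided Wald test, adjusted by Benjamini-Hochberg after independent filtering, at 0.05. The scripts were tested on simulated data.

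Named genes were a fixed list of 23 genes; outside distal 13q the 12 genes per direction, and within it the 5 per direction, with the largest log2 fold change among those called, with separate groups and a mean of at least 100; the 3 nearest measured neighbours of *RB1* on each side; up to 4 called genes of each of 26 gene lists; and list members needed to say what a list holds. Some genes picked in this way are not reported here. Genes, lists and the segment boundary were chosen with earlier results of these data known. A floor of 3 counts per library was used for genes at 0. It covers counting error only.

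Alternatives were the 6 DMSO libraries alone, edgeR 4.0.16, total-count scaling, scaling without chromosome 13, other filters and thresholds, the replicate number as a block, and leaving out each library. Same-numbered libraries did not deviate together (correlations of -0.26, -0.01 and 0.09), so the numbers were not taken as pairs.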

Additional observations from a re-analysis of the deposited data

Results flagged for a closer look

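For 20 of 22 genes of the fixed list, the genotype difference in abemaciclib differed from that in DMSO by the interaction term of the DESeq2 model (adjusted *P* under 0.05), 15 with a larger value in abemaciclib and 5 with a smaller one. Each value below is the log2 fold change of the knockout in abemaciclib minus that in DMSO. Among the cell cycle genes of the list it was 6.27 for *CCNE2*, 5.97 for *MKI67*, 5.82 for *TYMS*, 3.80 for *CDK1*, 3.78 for *E2F2*, 3.40 for *CDKN2C*, 3.18 for *CDKN2A*, 2.07 for *RBL1*, 1.77 for *CDKN1A*, 1.57 for *MCM2*, 1.26 for *CCNE1* and 0.86 for *E2F1*, but -1.24 for *CCND1*, -0.40 for *RBL2* and -0.37 for *E2F3*. *CDK1*, *TYMS* and *CDKN2C* had log2 fold changes of -0.60, -0.15 and -0.33 in DMSO and of 3.20, 5.68 and 3.06 in abemaciclib.

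The difference was 1.79 for *CIITA*, 0.76 for *PGR* and 1.15 for *RB1*, whose log2 fold change was -6.60 in DMSO and -5.45 in abemaciclib. It was also below 0 for *TFF1* (-3.42) and *ESR1* (-0.98). *GREB1* (-0.26) and *KDM5A* (-0.27) did not pass.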

How the results depend on the processing

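The number of genes called was 6259 and stayed within 4785 and 6599 under every alternative test, scaling, filter, stricter adjusted *P* and left-out library tried, with 77.6% to 98.7% of the original calls shared per alternative fit; asking also for a 2-fold change left 1038. Leaving out 1 library at a time gave 4977 to 6599 genes. Outside distal 13q these fits gave 4833 to 6450 genes, and within it 142 to 149. The median log2 fold change of distal 13q (-0.70) was -0.72 with total-count scaling, -0.66 and -0.67 over genes with a mean of at least 10 and 1000, and -0.73 to -0.68 with 1 library left out. With the 6 DMSO libraries alone, 8 DNA replication genes were lower in place of 13, and 4 nucleotide supply genes were higher in place of 7. Total-count scaling gave 1 higher homologous recombination gene in place of 2, and 2 lower genes in place of 1 in each of the MHC class I, interferon-stimulated and Polycomb lists. The counts of higher and lower genes with 1 library left out ranged from 9 to 12 and 8 to 12 for the Rb pathway, 10 to 11 and 9 to 11 for DNA replication and 12 to 16 and 25 to 32 for the oestrogen response; those of lower G2/M genes ranged from 27 to 38, and those of higher MHC class II, interferon-stimulated and p53 genes from 11 to 12, 23 to 29 and 13 to 17. The causes of these differences were not tested.

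With the replicate number as a block, 6031 genes were called, 5883 of them outside distal 13q and 148 within. The numbers do not pair the libraries, and of the genes named by rule the block changed the call of *MKI67* only (0.36, adjusted *P* = 0.0104); the call of *RFXAP*, named to account for its list, was lost.

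Of 1820 values for 140 named genes, 1791 kept direction and side of the threshold, 24 in 12 genes lost it, 5 in 3 genes gained it and 0 reversed; *ESAM* lost its call without sgControl replicate 3 (adjusted *P* = 0.0924). Depth limited genes near the floor, where the knockout libraries, being shallower, resolve less than the sgControl libraries, and no clone effect could be separated from the genotype.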
